A study of Homo sapiens with 6 samples.

Results

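Interferon-stimulated genes were followed in OVCA433 cells, an established human ovarian cancer line, in which a SOGA1 loss was studied. The set was a list of 39 gene symbols, and all 39 had a row among the 26699 rows of the deposited count table. The line was compared in 3 libraries named si and 3 named sinc, a design that asks what changes in gene expression go with a deficiency of SOGA1. The labels give both groups the same cell line and poly(A) RNA-seq, spell out neither group name, and say nothing of a clone, a reagent or an interferon treatment. Whether replicates were grown separately is not stated either, so every p-value here reflects how far these 6 libraries scatter, a scatter that may be partly or wholly technical. Within a group, values are always listed for replicates 1, 2 and 3 in that order.

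Interferons are secreted proteins that cells release on sensing viral nucleic acid. Type I and type III interferons act through receptors coupled to the kinases JAK1 and TYK2, which activate STAT2. STAT2 and IRF9 are parts of a complex called ISGF3, which binds the interferon-stimulated response element in the promoters of its targets. The induced proteins sense viral RNA, block entry, translation and release of viruses, and feed back on the pathway itself. Some cancer cell lines express part of this set steadily with no interferon added.

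The response element is what many of these promoters share by sequence, and examples are shown because control through it is what the set is known for. The core searched was GAAANNGAAA or its reverse complement TTTCNNTTTC, in RefSeq promoter windows from 250 bases before to 50 bases after the first listed start of each gene, on GRCh38.p14. A window was available for 32 of the 39 genes, and IFIT2, MX2, OAS2, OASL, DHX58, IRF7 and USP18 had none. The core lay in 20 of the 32 windows (62.5%), against 996 of 27305 promoters of the same length (3.65%). A match is a description of letters and not a shown binding site. The lines give 28-base windows around 1 match for each of 9 genes, 5′ to 3′ on the strand of the gene, with the core in capitals. IFI6, IFI27, IFITM3, ISG15 and BST2 are shown because they carry the si against sinc values described further on, MX1, IFIT1 and IFITM1 as examples that were low in replicate 3, and PARP14 as the gene with the lowest fold change.
IFI6, chr1:27672289-27672316 (-): gagagagggGAAAATGAAActgcagagt
IFI27, chr14:94110632-94110659 (+): ggtttcctgGAAAATGAAAcctatctca
IFITM1, chr11:314025-314052 (+): cacttctgaGAAACTGAAAcgacagggg
IFITM3, chr11:320877-320904 (-): aactgttgaGAAACCGAAActactgggg
ISG15, chr1:1013381-1013408 (+): cgggaaaggGAAACCGAAActgaagcca
BST2, chr19:17405742-17405769 (-): cctttctggGAAACTGAAActgaaaacc
MX1, chr21:41420560-41420587 (+): agcagaaatGAAACCGAAActgaattgt
IFIT1, chr10:89392498-89392525 (+): tagctttagTTTCACTTTCccctttcgg
PARP14, chr3:122680801-122680828 (+): ccaggaaacGAAAGCGAAAgagtcaaag
The match printed for ISG15 overlaps another in the same promoter, as does that of BST2. IFI27 carried the core in both orientations and IFIT1 had 2 matches in the reverse orientation.

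Total counts per library lay between 33778707 and 44130601. SOGA1, the gene behind the study, had 25.3, 27.2 and 20.2 CPM in si, against 64.4, 59.7 and 63.9 CPM in sinc (CPM are counts scaled to library size with TMM factors). The groups did not overlap, and si stood at 38.7% of sinc (edgeR quasi-likelihood test, log2 fold change -1.37, SE 0.11, adjusted p = 0.000963). Leaving out replicate 1 of both groups was the 1 alternative that ended it (log2 fold change -1.38, adjusted p = 0.0693). Of 13 markers of ovarian carcinoma and epithelium 11 had a row and were tested, while CDH1 and MUC16 had no row. The 11 summed to 7739.6, 7276 and 7725 CPM in si, against 7104, 7564 and 7277 CPM in sinc. Markers of leukocytes had 4 rows, 1 of them above the low-count filter, and summed to 26.4, 20.8 and 21.7 CPM in si, against 21.4, 19.3 and 25.0 CPM in sinc. Fibroblast markers had 3 rows and summed to 141, 127 and 132 CPM in si, against 107, 106 and 102 CPM in sinc, with 1 of 2 tested genes higher in si, and the 4 endothelial rows summed to at most 13.4 CPM in any library. Mitochondrially encoded genes took 2.92%, 3.31% and 1.26% of the counts in si, against 3.15%, 2.74% and 2.21% in sinc.

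Replicate 3 of each group stood apart in the interferon-stimulated genes. Together the 39 genes summed to 5891, 5852 and 2825 CPM in si, against 4954, 4756 and 2351 CPM in sinc, so that replicate 3 held 48.1% of the mean of replicates 1 and 2 in si and 48.4% in sinc. Replicate 3 was the lowest library of its group in both groups for 38 of the 39 genes, against 13.6% of the 15562 genes tested. The exception was HERC6, with 25.9, 27.9 and 27.1 CPM in si, against 38.1, 30.1 and 22.1 CPM in sinc. Replicate 1 was the lowest library of both groups for 0 of the 39 genes (5.26% of all genes), and so was replicate 2 (10.3% of all genes). With total-count scaling the number for replicate 3 was 36 of 39, without DDX60, HERC6 and IRF9, against 12.0% of all genes.

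**Figure D1:**
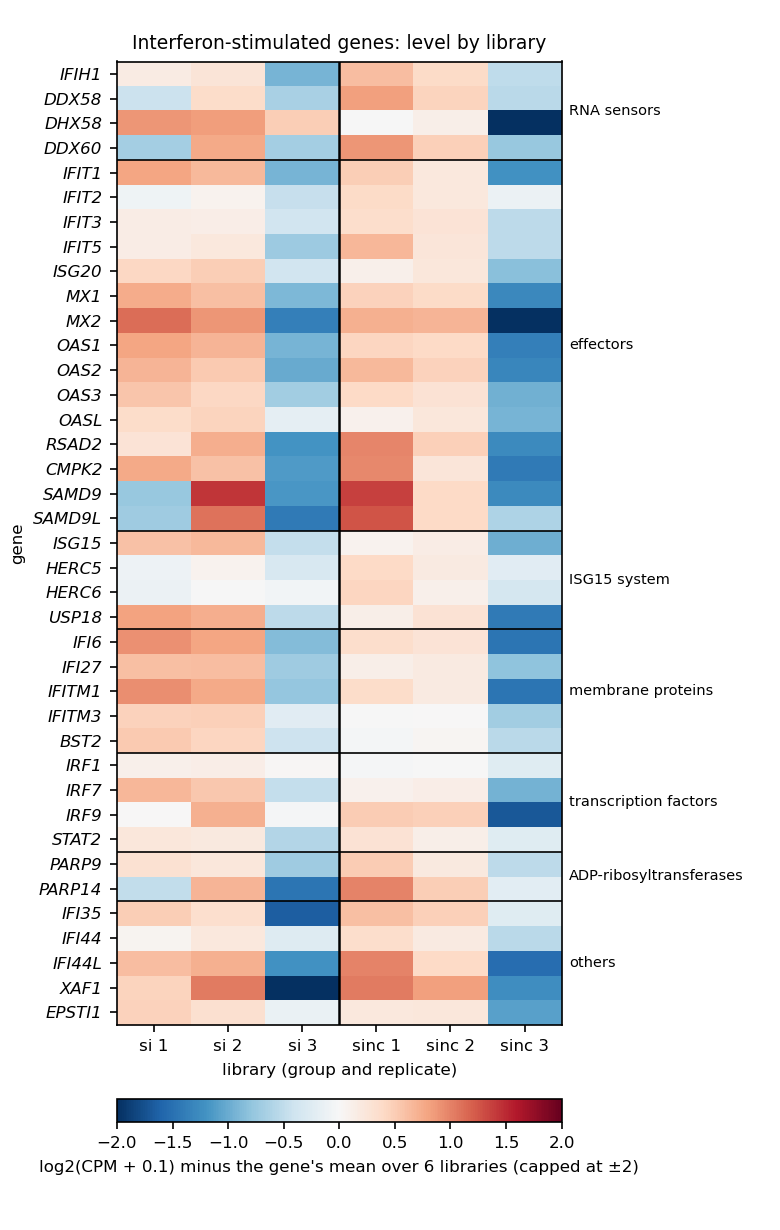
Level of each of the 39 genes in each library, as log2(CPM + 0.1) minus the gene's mean over the 6 libraries; red is above and blue below that mean, with si left of sinc and genes grouped by role. Replicate 3 is blue in both groups for most genes, and 38 of 39 are lowest there in both.

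The difference was large beside that of all genes. The median over the 39 genes of replicate 3 minus the mean of replicates 1 and 2 was -1.10 on the log2 CPM scale in si and -1.17 in sinc, against -0.01 in si and -0.006 in sinc over all genes tested. In both groups replicate 3 lay below 50% of the lower of replicates 1 and 2 for 15 of the 39 genes, against 62 of all 15562 genes (0.398%), so that 24.2% of those 62 were interferon-stimulated genes of this list. Among the 10464 genes with a mean of at least 5 CPM the number was 15 genes (0.143%), of which 12 were in the list and the others were NBPF19, RN7SL2 and LGALS9. Counted in each group by itself, the number was 18 of 39 in si (2.91% of all genes) and 22 of 39 in sinc (2.41%). It was 15 of 39 in both groups with total-count scaling (0.315%) and 13 of 39 after a correction for transcript length and GC content (0.196%). Replicate 1 lay that low in both groups for 0 of the 39 genes (0.135% of all genes), and so did replicate 2 (0.09%). LGALS9 encodes galectin-9, itself known to be induced by interferon, and had 9.60, 9.79 and 3.39 CPM in si, against 9.04, 6.94 and 2.97 CPM in sinc. The summed level of the 11 epithelial markers in replicate 3 was 103% of the mean of replicates 1 and 2 in si and 99.2% in sinc, and 1 of the 11, CLDN4, was lowest in replicate 3 of both groups. That sum is mostly of the keratins KRT7, KRT8 and KRT18. PAX8, a transcription factor of the Müllerian lineage, had 665, 648 and 493 CPM in si, against 691, 664 and 708 CPM in sinc, and KRT19 had 50.5, 46.7 and 34.8 CPM in si, against 34.6, 38.3 and 40.0 CPM in sinc, both lower in replicate 3 of si and neither in sinc. The share of mitochondrial counts was also lowest in replicate 3 of both groups, and its part in the result was not tested. No label says what the libraries numbered 3 share, and in bulk RNA fewer cells expressing a gene and less RNA per cell cannot be told apart.

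**Figure D2:**
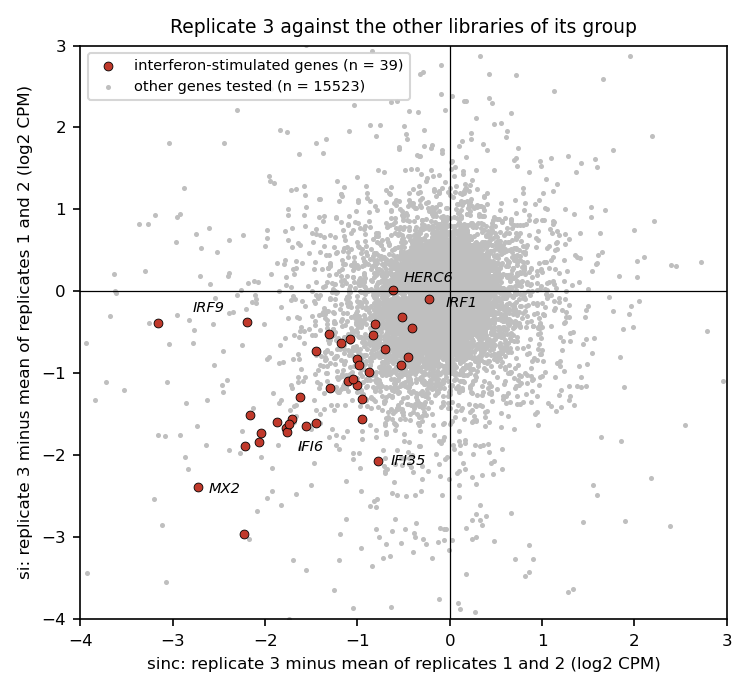
Replicate 3 minus the mean of replicates 1 and 2, in log2 CPM, for si (vertical axis) and sinc (horizontal axis); red points are the 39 interferon-stimulated genes, grey points the other genes tested, and 41 genes lie outside the axes. The red points sit in the lower left, with HERC6 at the zero line of si and IRF1 close to the origin.

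The level of the 39 genes differed widely within the cells. Per kilobase of transcript, 6 genes exceeded a mean of 100 CPM over the 6 libraries, namely IFI27 (758 CPM per kb), IFITM3 (711), ISG15 (487), BST2 (355), IFI6 (231) and MX1 (129). At the other end 5 genes stayed below 2 CPM per kb, which were SAMD9L, RSAD2, CMPK2, XAF1 and DHX58. DHX58 was lowest at 0.19 CPM per kb. The 4 leading genes kept the same order by group mean in both groups, but IFI27 and IFITM3 differed by less than their spread, at 860 and 825 CPM per kb in si and 656 and 598 CPM per kb in sinc.

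The 4 sensors of viral RNA had means of 9.51 (DDX58), 3.13 (IFIH1), 2.25 (DDX60) and 0.19 CPM per kb (DHX58). DDX58 encodes RIG-I and IFIH1 encodes MDA5, receptors for double-stranded RNA in the cytosol, DHX58 encodes their regulator LGP2, and DDX60 is a related helicase. DDX58 (chr9:32455705-32526324, GENCODE 29 on GRCh38, as for all gene positions here) had 28.5, 49.7 and 24.4 CPM in si, against 67.5, 52.0 and 26.3 CPM in sinc. The groups overlapped, with si replicate 2 close to sinc replicate 2 and si replicates 1 and 3 close to sinc replicate 3 (edgeR, log2 fold change -0.51, SE 0.37, adjusted p = 0.405). IFIH1 had 11.9, 12.7 and 5.52 CPM in si, against 16.2, 13.8 and 7.44 CPM in sinc. DDX60 had 7.51, 20.5 and 7.50 CPM in si, against 22.4, 16.9 and 7.08 CPM in sinc, so that si replicate 1 was as low as the libraries numbered 3. DHX58 gave only 28, 31 and 20 counts in si, against 16, 19 and 0 counts in sinc. Its groups did not overlap, as in 34.9% of all genes tested, but its fitted change rests on few counts and missed the threshold (edgeR, adjusted p = 0.301). None of the 4 sensors passed, and as a group their summed level in replicate 3 was 57.3% of the mean of replicates 1 and 2 in si and 43.0% in sinc.

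The 15 effectors bind viral RNA or block viral replication, and the 3 members with the widest ranges among those with a mean of at least 5 CPM, MX2, SAMD9 and SAMD9L, belong to them. MX1 and MX2, dynamin-like GTPases that trap viral components, lie side by side on chr21:41361943-41459214. MX1 had 659.5, 593 and 212 CPM in si, against 538, 513 and 160.2 CPM in sinc. MX2 had 31.9, 27.2 and 5.61 CPM in si, against 24.2, 23.6 and 3.56 CPM in sinc, and its replicate 3 stood at 18.98% of the mean of the other libraries in si and 14.9% in sinc. The range of MX2 over the 6 libraries was 3.14 on the log2 scale.

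The OAS family makes or resembles the enzymes that make the 2′-5′ oligoadenylates which activate RNase L, and OAS1, OAS3 and OAS2 stand in a row on chr12:112906777-113011723. OAS1 had 226, 207 and 68.2 CPM in si, against 175, 170.4 and 50.5 CPM in sinc. OAS2 showed a like gap, with replicate 3 at 33.0% of the other libraries in si and 27.3% in sinc, and OAS3 at 44.1% in si and 40.7% in sinc. OASL, which lacks the enzyme activity, had 269, 284 and 185 CPM in si, against 221, 244 and 110.1 CPM in sinc, a gap that was smaller in si (66.9%) than in sinc (47.4%).

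The IFIT genes, whose proteins bind viral RNA ends and translation factors, lie together on chr10:89283694-89421001, yet their gaps differed. IFIT1 had 121, 110.5 and 37.0 CPM in si, against 98.3, 81.3 and 30.3 CPM in sinc, so that replicate 3 held 31.9% of the other libraries in si and 33.8% in sinc. IFIT2 held 73.5% in si and 75.0% in sinc, and IFIT3 held 69.0% in si and 56.2% in sinc. IFIT5 lay between, at 53.6% in si and 50.03% in sinc. Neighbouring genes of 1 cluster therefore did not share 1 size of difference.

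Other effectors were weakly expressed or erratic. SAMD9 and its neighbour SAMD9L on chr7:93099513-93148369 encode restriction factors of poxviruses. SAMD9 had 7.54, 34.7 and 5.67 CPM in si, against 33.2, 17.0 and 5.26 CPM in sinc, and SAMD9L had 5.07, 17.9 and 3.10 CPM in si, against 20.2, 11.1 and 5.44 CPM in sinc. In both genes si replicate 1 was low beside si replicate 2 and sinc replicate 1, so that more than replicate 3 varied. RSAD2, the antiviral enzyme viperin, and its neighbour CMPK2, a nucleotide kinase, stayed under 7 CPM in all 6 libraries, with replicate 3 between 22.0% and 28.9% of the other libraries in both groups. ISG20, an RNA exonuclease, held 56.2% in si and 49.6% in sinc. Of the 15 effectors 0 passed the test between the groups in either direction (edgeR, adjusted p from 0.239 to 0.963).

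**Figure D3:**
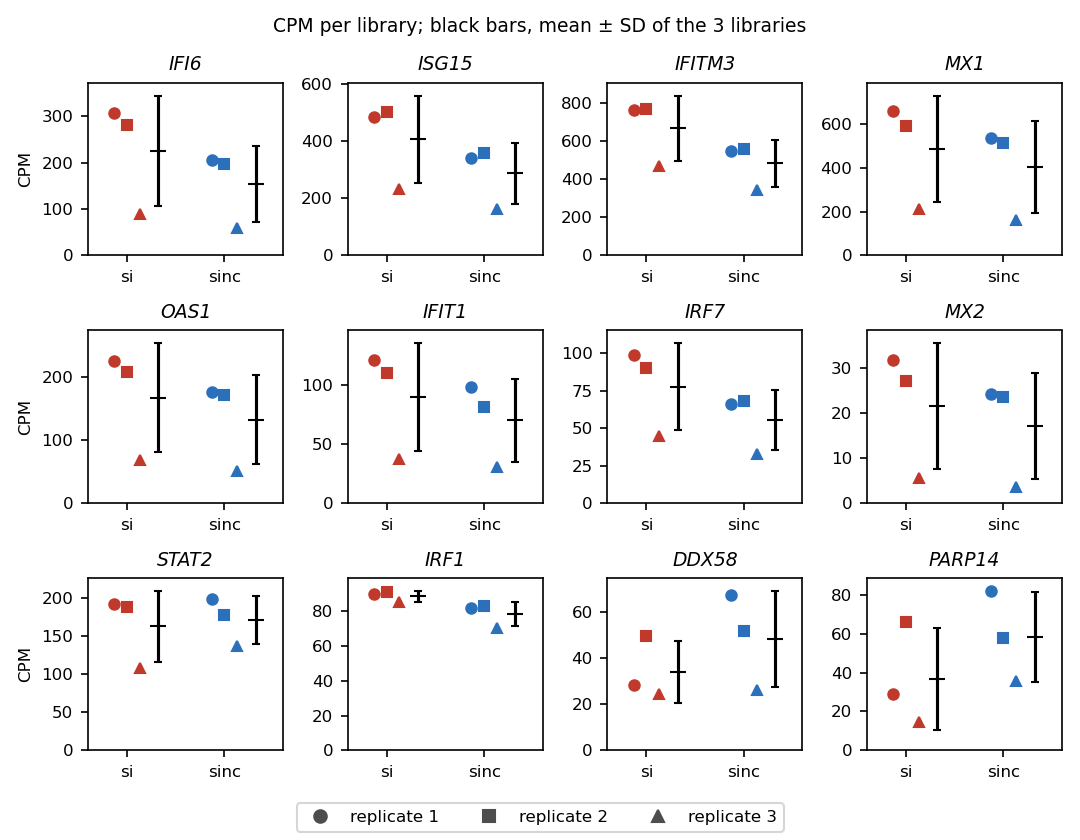
CPM of 12 of the genes in each library, si left of sinc, with circles for replicate 1, squares for replicate 2 and triangles for replicate 3; black bars are the mean ± SD of the 3 libraries. In IFI6, ISG15, IFITM3 and IRF7 replicates 1 and 2 of si lie above those of sinc while replicate 3 is low in both, and in DDX58 and PARP14 si replicate 1 is low as well.

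The ISG15 system splits by member. ISG15 is a ubiquitin-like protein, HERC5 its ligase in human cells, HERC6 a relative of HERC5, and USP18 the protease that removes ISG15 and restrains the type I interferon receptor. ISG15 (chr1:1001138-1014540) had 484, 502 and 231 CPM in si, against 339, 358 and 163 CPM in sinc. Replicates 1 and 2 of si lay above those of sinc, and replicate 3 of si lay above replicate 3 of sinc but below all other libraries. USP18 had 36.4, 34.3 and 14.4 CPM in si, against 22.6, 25.3 and 7.73 CPM in sinc, in the same pattern. HERC5 had 63.8, 71.5 and 54.6 CPM in si, against 89.5, 77.7 and 58.4 CPM in sinc, with si below sinc for each replicate number. By edgeR over all 6 libraries none passed (ISG15, log2 fold change 0.50, SE 0.36, adjusted p = 0.396, and HERC5, log2 fold change -0.25, SE 0.16, adjusted p = 0.351).

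Of the 5 membrane proteins, IFI27, IFITM3, BST2 and IFI6 were among the 6 most abundant members per kilobase. IFITM1 and IFITM3 block fusion of virus and cell membranes, BST2 (tetherin) holds budding virions at the cell surface, and IFI6 and IFI27 are small hydrophobic proteins of internal membranes. IFI27 had 776, 781 and 313 CPM in si, against 554, 580.2 and 293 CPM in sinc. IFITM3 had 761, 767 and 471 CPM in si, against 549, 558 and 342 CPM in sinc, and BST2 had 501, 471 and 261 CPM in si, against 340.0, 357 and 241 CPM in sinc. In each of them replicates 1 and 2 of si stood above those of sinc, and si was also above sinc in replicate 3. IFI6 had 307, 281 and 89.4 CPM in si, against 207, 196 and 59.3 CPM in sinc, and IFITM1 had 83.6, 74.9 and 25.8 CPM in si, against 57.1, 49.7 and 15.9 CPM in sinc. Both dropped further in replicate 3 than the other 3 genes, to between 29.4% and 32.6% of replicates 1 and 2 in either group. Over all 6 libraries the 5 log2 fold changes lay between 0.39 and 0.59, and none passed (edgeR, adjusted p from 0.235 to 0.550).

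The 4 transcription factors kept more of their summed level in replicate 3 than the other roles, 64.6% in si and 66.5% in sinc. STAT2 and IRF9 are subunits of ISGF3, IRF7 drives interferon genes and IRF1 is a factor induced mainly by interferon gamma. IRF1 had 89.7, 90.7 and 84.9 CPM in si, against 81.9, 82.9 and 70.5 CPM in sinc, and its replicate 3 kept 94.1% of the other libraries in si and 85.5% in sinc. Its groups did not overlap, yet the difference missed the threshold (edgeR, log2 fold change 0.17, SE 0.08, adjusted p = 0.191), and non-overlap was common, at 34.9% of all genes tested (18.1% with si higher and 16.8% with si lower). STAT2 had 191, 187 and 108 CPM in si, against 198, 177 and 137 CPM in sinc, and IRF7 had 98.5, 90.0 and 44.7 CPM in si, against 66.0, 68.4 and 32.4 CPM in sinc. IRF9 had 25.3, 41.5 and 25.0 CPM in si, against 36.0, 35.4 and 7.75 CPM in sinc, where sinc replicate 3 alone was far below the rest. That gene needs caution, because AL136295.5, annotated on the same strand, overlaps 48.4% of its exon bases and holds 100% of its 50-base words. AL136295.5 had 194, 152 and 119.7 CPM in si, against 149, 142 and 119 CPM in sinc, and the sum of both genes was 219, 194 and 145 CPM in si, against 184, 177 and 127 CPM in sinc, a smaller gap than for IRF9 alone in sinc but not in si.

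PARP9 and PARP14, ADP-ribosyltransferases of the antiviral response, are neighbours on chr3:122527924-122730840. PARP9 had 66.4, 62.8 and 32.7 CPM in si, against 76.8, 61.4 and 37.5 CPM in sinc. PARP14 had 29.2, 65.8 and 14.8 CPM in si, against 82.0, 57.5 and 35.4 CPM in sinc, with si replicate 1 near the libraries numbered 3 and si replicate 2 among the sinc values. It had the lowest fold change of the 39 genes (edgeR, log2 fold change -0.67, SE 0.51, adjusted p = 0.427). Without si replicate 2, the si library where it was highest, it was the 1 member past the threshold (edgeR, log2 fold change -1.41, adjusted p = 0.0377). It was lower in si in that fit, in which 781 of all 15892 genes passed as higher and 1782 as lower.

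Of the remaining 5 genes IFI44 had 95.0, 106 and 76.1 CPM in si, against 117, 103 and 62.4 CPM in sinc, and IFI35, a partner of NMI, had 40.2, 36.3 and 9.06 CPM in si, against 43.4, 39.8 and 24.3 CPM in sinc. In IFI35 the low library was si replicate 3, at 23.7% of the others, while sinc replicate 3 kept 58.4%. EPSTI1 had 30.5, 27.6 and 20.2 CPM in si, against 25.6, 25.8 and 10.4 CPM in sinc. IFI44L, a paralog of IFI44, had 33.0, 35.3 and 9.21 CPM in si, against 42.6, 28.4 and 7.42 CPM in sinc, and XAF1, which counters the inhibitor of apoptosis XIAP, stayed under 5 CPM, with replicate 3 at 11.3% of the others in si and 20.2% in sinc.

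Between si and sinc no member passed over all 6 libraries in the test on group alone. By edgeR 0 of 39 were higher and 0 lower, and 0 reached even an unadjusted p under 0.05, against 10.1% of the 15562 genes tested with an adjusted p under 0.05 (4.14% higher and 6.0% lower) and 29.1% with an unadjusted p under 0.05. That count of 1579 genes was 27 without replicate 1 and 2563 without si replicate 2. DESeq2 gave 0 calls (1 member at an unadjusted p under 0.05, and 3 with no adjusted p) and limma-voom gave 0. The median log2 fold change was 0.07, with 21 members above 0 and 18 below, against 0.006 over all genes tested. The direction of that median rested on single libraries: over the 9 fits that left out 1 library or 1 replicate number it ranged from -0.22 without sinc replicate 3 to 0.43 without sinc replicate 1. The summed CPM of the 39 genes averaged 4856 ± 1759 in the si libraries and 4021 ± 1449 in the sinc libraries (mean ± SD, n = 3), a difference smaller than the spread within either group. Groups overlapped in CPM for all members but DHX58 and IRF1, while 34.9% of all genes tested did not overlap. With the replicate number as a block over the same 6 libraries, edgeR called 5 members higher and 0 lower. Over all 15562 genes tested that fit called 102 higher and 336 lower, and it is described further on.

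**Figure D4:**
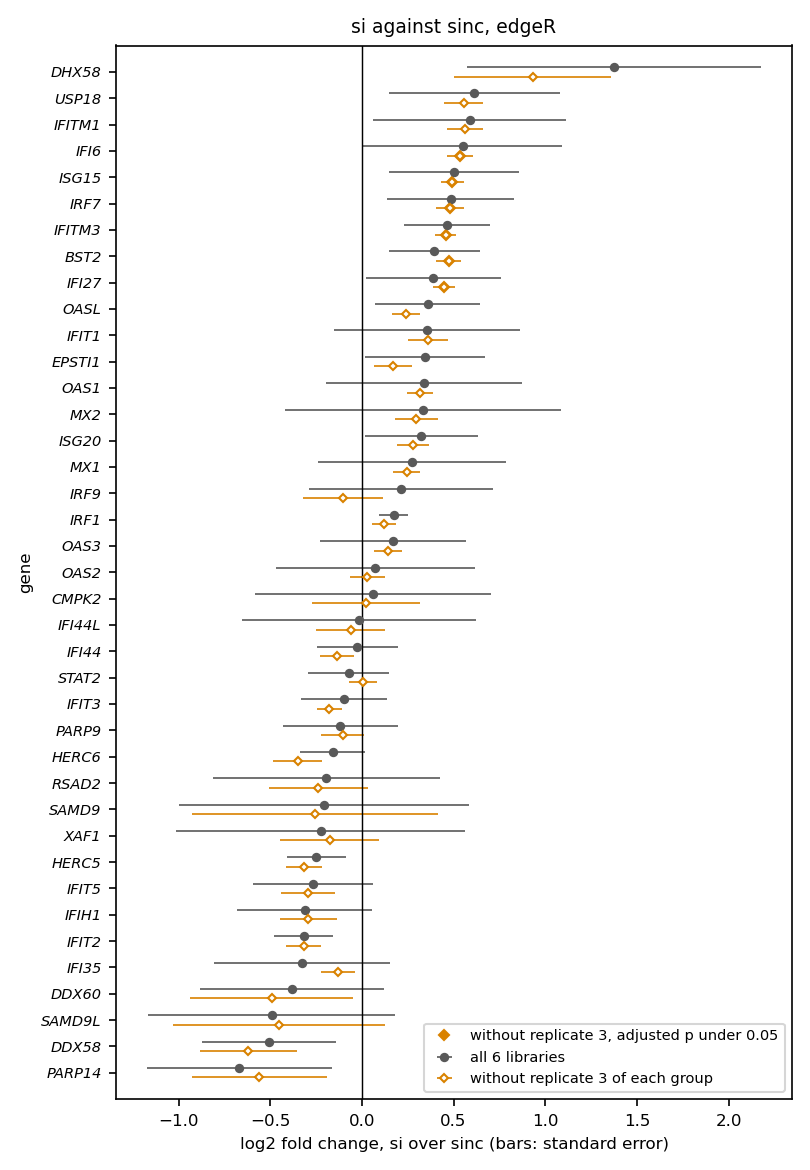
Log2 fold change of si over sinc with its standard error for each of the 39 genes, over all 6 libraries (grey circles) and without replicate 3 of each group (orange diamonds, filled where the adjusted p was under 0.05). Standard errors shrink without replicate 3, and 6 genes (IFI6, ISG15, IRF7, IFITM3, BST2 and IFI27) then pass as higher in si.

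Without replicate 3 of both groups, in a comparison of 2 libraries against 2, 6 members passed as higher in si and 0 as lower. Over all genes tested in that fit 0.743% passed as higher and 1.88% as lower (2.62% in all). They were IFI6 (log2 fold change 0.54, SE 0.07, adjusted p = 0.0309), ISG15 (log2 fold change 0.49, SE 0.06, adjusted p = 0.0286), IRF7 (log2 fold change 0.48, SE 0.08, adjusted p = 0.0434), BST2 (log2 fold change 0.47, SE 0.07, adjusted p = 0.0332), IFITM3 (log2 fold change 0.46, SE 0.06, adjusted p = 0.0271) and IFI27 (log2 fold change 0.45, SE 0.06, adjusted p = 0.0309). IFITM1 missed the threshold narrowly (adjusted p = 0.0502), followed by USP18 (adjusted p = 0.058). Their fold changes were close to those over all 6 libraries, while the standard errors were far smaller: for IFI6 0.07 in place of 0.54. The libraries left out were those that stood apart in the 39 genes, so smaller standard errors were built into that choice. With the replicate number as a block on the same libraries 0 members passed, against 6 higher and 39 lower of 15887 genes. At an unadjusted p under 0.05, 14 members were higher and 4 lower, HERC5, HERC6, IFIT2 and IFIT3 being the lower ones, against 24.0% of all genes in either direction. In CPM replicates 1 and 2 of si lay above those of sinc for 18 members (29.4% of all genes) and below for 7 (28.0% of all genes).

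The change also ran with the length and base composition of the transcript. All 6 members with a transcript under 1100 bases had a log2 fold change above 0 over all 6 libraries, between 0.39 and 0.59, and 7 of the 8 with over 4000 bases had one below 0. Spearman's rho between the log2 fold change and length was -0.69 over the 39 genes, and with GC content 0.67. The same held over the 12749 genes with an annotated coding transcript, at -0.47 and 0.49, as a description across genes that share the same 6 libraries. With each library corrected for length and GC content, 0 of 39 members passed over all 6 libraries, against 6.44% of all genes in that fit and 14.9% of the same genes without the correction. After correction rho over the 39 genes was still -0.34 with length and 0.30 with GC content, against 0.01 and -0.02 over the 12749 genes. With replicate 3 of both groups left out as well, 0 members passed after correction (2.99% of all genes), against 9 without it (5.63% of the same genes). At an unadjusted p under 0.05, 9 members were then higher and 1 lower after correction. For the gap of replicate 3, rho with length was 0.03 in si and -0.08 in sinc over the 39 genes, and with GC content 0.06 and 0.13. Over the 12749 genes it was -0.11 in si and -0.07 in sinc with length, and 0.02 and 0.27 with GC content. After the correction 38 of 39 members were still lowest in replicate 3 of both groups (16.2% of all genes), IRF9 being the exception.

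**Figure D5:**
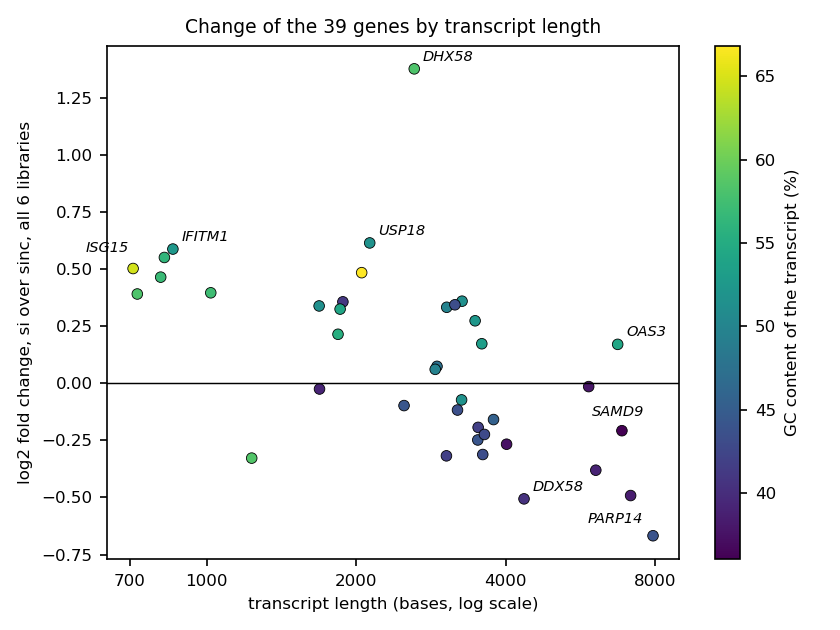
Log2 fold change of si over sinc over all 6 libraries against transcript length (log scale) for the 39 genes, coloured by the GC content of the transcript. Short, GC-rich transcripts such as ISG15 and IFITM1 lie above 0, and long, AT-rich ones such as DDX58 and PARP14 below.

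The gap of replicate 3 was present in members with and without a match to the searched core. The search took a single core in a single window per gene, so no match does not show that a gene lacks the element. The 20 members with a match had a median difference between replicate 3 and the other libraries of -1.12 in si and -1.05 in sinc (log2 CPM), and the 12 without one had -1.29 in si and -1.31 in sinc. Outside the list, 303 tested genes had a match, and replicate 3 was lowest in both groups for 26.1% of them, against 12.0% of the 10806 tested genes without one. It lay below 50% of the lower of replicates 1 and 2 in both groups for 1.32% of those with a match and 0.157% of those without.

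Other genes of the pathway were read from lists by role. Of the 63 tested, 2 passed as higher and 1 as lower, against 4.14% higher and 6.0% lower over all genes tested. Of 8 interferon genes 3 had a row, IFNB1, IFNE and IFNL1, all at 0.242 CPM or less in all 6 libraries and none above the low-count filter. Of 5 tested receptor genes 1 was higher in si, IL10RB, a chain of the type III receptor, with 48.3, 43.1 and 51.2 CPM in si, against 36.9, 39.4 and 36.8 CPM in sinc (edgeR, log2 fold change 0.34, SE 0.08, adjusted p = 0.0418). Of 9 signalling genes 1 was lower, the kinase JAK1, with 155, 157 and 166 CPM in si, against 202, 191 and 213 CPM in sinc (edgeR, log2 fold change -0.34, SE 0.06, adjusted p = 0.0204). Of 16 nucleic acid sensors and adaptors 0 passed, with the RNA-editing enzyme ADAR at 621, 552 and 462 CPM in si, against 634, 587 and 459 CPM in sinc and the ligase TRIM25 at 423, 404 and 276 CPM in si, against 449, 454 and 344 CPM in sinc. Repressors of the pathway had 0 of 6 past the threshold, and the most abundant, ATF3, had 36.9, 43.7 and 41.6 CPM in si, against 31.4, 42.2 and 31.2 CPM in sinc, followed by IRF2 with 35.0, 30.8 and 37.4 CPM in si, against 38.0, 35.8 and 34.4 CPM in sinc.

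Further induced genes, 32 in number and all tested, held 1 gene past the threshold (10.1% of all genes tested, in either direction). IFITM2, a paralog of IFITM1 and IFITM3, was higher in si with 31.7, 32.3 and 27.2 CPM in si, against 21.5, 24.7 and 20.6 CPM in sinc (edgeR, log2 fold change 0.45, SE 0.11, adjusted p = 0.0385). In 29 of these 32 genes replicate 3 was the lowest library of both groups (13.6% of all genes), and their summed level in replicate 3 was 72.4% of the other libraries in si and 71.3% in sinc, a smaller gap than in the 39 genes. Receptors kept 96.1% in si and 97.8% in sinc. The calls of IL10RB, JAK1 and IFITM2 all ended once length and GC content were corrected for. By edgeR the corrected log2 fold change was 0.25 for IL10RB (adjusted p = 0.0629), -0.17 for JAK1 (adjusted p = 0.125) and 0.17 for IFITM2 (adjusted p = 0.406), against 0.34, -0.33 and 0.46 on the same genes without the correction. All 3 calls also ended without replicate 1 of both groups (adjusted p of 0.385, 0.302 and 0.386) and without replicate 3 of both groups (0.175, 0.058 and 0.0861), and those of JAK1 (0.0514) and IFITM2 (0.0636) without replicate 2. IL10RB kept its call among the single-library fits only without si replicate 2, JAK1 lost it without si replicate 1, sinc replicate 1 or sinc replicate 3, and IFITM2 kept it only without si replicate 3. IL10RB and IFITM2 also missed it with no low-count filter, and IL10RB with total-count scaling (adjusted p = 0.0528).

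Shared sequence limits a few of the values. Of the 50-base words of its transcript IFITM1 shares 42.3% with other genes, chiefly IFITM2, IFITM3 shares 20.3%, and USP18 shares 23.4%, chiefly with USP41. Summed, IFITM1, IFITM2 and IFITM3 had 877, 874 and 524 CPM in si, against 628, 633 and 378 CPM in sinc, and USP18 with USP41 had 37.8, 36.2 and 15.1 CPM in si, against 23.5, 26.2 and 8.09 CPM in sinc, in the same pattern as the single genes. Whether the counting used strand is not given in the sources used here, so reads of overlapping opposite-strand genes, such as PARP9 with DTX3L and IRF1 with C5orf56, may be mixed.

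The members moved closely together over the 6 libraries, of which 2 were low. The correlation of each gene's log2 CPM with the mean of the other members had a median of 0.909 and ranged from 0.650 to 0.993. Outside the list, the genes most like the mean of the 39 among 10429 with at least 5 CPM were APOL2 (Pearson r 0.988), SLC25A28 (0.987), MT-ND3 (0.985), LGALS9 (0.983) and PARP12 (0.981), as a description over 6 libraries. APOL2 had 41.4, 41.7 and 32.6 CPM in si, against 40.9, 41.5 and 30.6 CPM in sinc, and PARP12 had 154, 151 and 92.4 CPM in si, against 159, 148 and 94.4 CPM in sinc. They were chosen for likeness to a mean that was itself low in replicate 3, a choice that favours genes low there. All 5 were lowest in replicate 3 of both groups, including the mitochondrially encoded MT-ND3, with 565, 592 and 415 CPM in si, against 549.6, 521 and 380.4 CPM in sinc.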

How the data were processed

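Libraries came from poly(A)-selected RNA and kept strand through dUTP, with roughly 15 PCR cycles, per the labels' protocols. The authors deposited whole-number counts per gene for 6 libraries, and CASAVA and StringTie appear in the submitters' processing notes. Aligner, genome build, annotation and strand setting: not given in the sources used here. Without molecular identifiers, counts are not independent molecules. Totals lay between 33778707 and 44130601, and 0 value columns were left unassigned. Placeholder symbols (773 rows) and symbols turned into dates (10 rows) were replaced through the gene ID.

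The labels gave each library its group and replicate number. edgeR 4.0.16 (R 4.3.3) gave the main test: filterByExpr (minimum count 10), TMM, then glmQLFit and glmQLFTest on group alone, two-sided, with Benjamini-Hochberg adjustment over all 15562 genes tested and a threshold of 0.05. A standard error is the size of the log2 fold change divided by the root of F. The members and lists were chosen with earlier results of these data known. Every member was accounted for by role. Values in every library were given for the 3 most abundant of each role per kilobase, for the 6 with the widest range at a mean of 5 CPM or more, and for some others chosen after their values were seen. In each pathway list up to 3 genes past the threshold, or the 2 most abundant, were named. The values of 1 list gene are not reported here. Other settings tried were 3 scalings (RLE, upper quartile, total count), DESeq2 1.42.0, limma-voom (limma 3.58.1), both other filters (none, and a minimum count of 50), a replicate block, left-out libraries and replicate numbers, and spline offsets (4 degrees of freedom) for length and GC content of 1 coding transcript per gene, which 81.9% of genes had. The block combined with another setting, and the offsets without replicate 3, were chosen after seeing the data. The edgeR steps were tested on simulated data.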

Additional observations from a re-analysis of the deposited data

How the results depend on the processing

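The call of 0 of 39 members over all 6 libraries held under the other 3 scalings, by DESeq2 and limma-voom, under both other filters and with the length and GC correction. It was 0 to 6 over the fits with a library or replicate number left out, with 6 only without replicate 3 and 1 without si replicate 2. In the fits with replicate 3 left out, 9 members passed on the genes with a transcript and 0 of these after correction. Genes past the threshold numbered 1579, against 844 with no filter, 821 with the correction and 1899 on the same genes without it, 2926 by DESeq2, 27 to 2563 with libraries left out (27 without replicate 1, 2563 without si replicate 2), and, without replicate 3, 723 on genes with a transcript and 384 of these after correction. The pathway lists held 3 calls, against 1 with no filter, 5 at a minimum count of 50, 10 by DESeq2, 0 to 7 with libraries left out, 5 on genes with a transcript, 0 after correction, and, without replicate 3, 6 and 1 on the same footing. The SOGA1 change ranged from -1.50 to -1.25 over left-out libraries and missed the threshold only without replicate 1 (-1.38, adjusted p = 0.0693). With libraries left out, 21 of 39 members changed sign in at least 1 fit, and no value that changed sign was past the threshold on either side. Among the scalings, only IFI44L changed sign (upper quartile). Apart from fewer genes or samples where the setting removes them, the cause was not tested.

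The replicate number as a block was tried although the labels do not say that a number marks a shared culture or day. Same-numbered libraries had correlated deviations of -0.18, -0.03 and 0.15 over 15562 genes. The highest correlation, 0.32, was between si replicate 2 and sinc replicate 1, so not every sample correlated best with its own number. The libraries numbered 3 did correlate best with each other. By the labels the samples share only a number, and whether they share more was not tested. With the block 5 members passed as higher (IFI6, IFITM1, IFITM3, ISG15 and IRF7), as with RLE or total-count scaling or limma-voom beside it, 6 with upper-quartile scaling, 13 by DESeq2, 9 on genes with a transcript, 2 after the length and GC correction (IFIT1 and USP18) and 0 without replicate 3. Genes past the threshold numbered 438 with the block, 438 with RLE, 339 with upper-quartile and 390 with total-count scaling, 325 by limma-voom, 1993 by DESeq2, 787 on genes with a transcript, 485 after correction and 45 without replicate 3. Calls in the pathway lists numbered 1 with the block, 1 with RLE, 0 with upper-quartile and 2 with total-count scaling. They numbered 16 by DESeq2, 0 by limma-voom, 6 on genes with a transcript, 1 after correction and 0 without replicate 3. The calls of IL10RB (edgeR, adjusted p = 0.112), JAK1 (0.0569) and IFITM2 (0.0701) were not made with the block alone, so its 1 call in the lists was of another gene. With a further setting beside the block, JAK1 passed with total-count scaling (0.0495), on genes with a transcript (0.0392) and by DESeq2 (0.000285). IFITM2 passed on genes with a transcript (0.0496) and by DESeq2 (0.0114), and IL10RB in none of these settings. The block did not end the SOGA1 call.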
